A study of Arabidopsis thaliana with 14 samples.

Results

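The regions described here are those whose centre lies in an intron of an annotated Arabidopsis gene, among the regions deposited for chromatin immunoprecipitation with sequencing (ChIP-seq) of FLM. A region was taken where the table lists an overlapping transcript at its centre and names no coding sequence, UTR or exon there, on nuclear chromosomes 1 to 5. This gave 1644 of 19879 nuclear regions for gFLM (8.27%), 1586 of 13791 for iFLMbeta (11.5%) and 1094 of 10006 for iFLMdelta (10.9%), or 4324 of 43676 in all. The location was read from the annotation alone and no read count entered the choice.

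The study immunoprecipitated GFP-tagged FLM with an anti-GFP antibody (Abcam ab290) from Columbia-0 seedlings and used seedlings whose FLM had no tag as controls. Seedlings for gFLM were 15 days old and had been kept at 16 °C in long days, and gave 3 libraries with the tag and 3 without. Those for the splice variants iFLMbeta and iFLMdelta were 10 days old and kept at 23 °C in long days, and gave 2 with and 2 without for each variant. Material for all 14 libraries was taken at zeitgeber time 8 h. The label of gFLM GFP replicate 2 names no antibody. The labels explain neither the prefixes g and i, nor the promoter that drove each construct, nor the FLM alleles of the plants. Nor is it stated that replicates were separate pools of seedlings, and the p-values below therefore reflect only differences among these libraries, which may be technical. A comparison of gFLM with a variant also compares age and temperature, which cannot be told apart from the construct.

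FLM is a MADS-box transcription factor that represses flowering, and its pre-mRNA is spliced differently at different temperatures. MADS-box proteins bind DNA as dimers at short AT-rich motifs called CArG boxes. Most plant regulatory elements are sought in promoters, but introns can also hold them, a known case being the large intron of the MADS-box gene AGAMOUS. An intron region is DNA within a gene body that was listed from the immunoprecipitation, and it says nothing of that gene's splicing.

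Regions in introns were spread over many genes. The 1644 gFLM regions lay in 1567 genes, the 1586 iFLMbeta regions in 1524 genes and the 1094 iFLMdelta regions in 1064 genes. Genes with 2 or more intron regions numbered 77, 60 and 31. GAD2, a glutamate decarboxylase, held the most with 4 in iFLMbeta, at mean log2 ratios from -0.36 to -0.03. A single transcript was annotated at the centre of 72.4%, 72.0% and 71.8% of the regions, and the plus strand held 768, 801 and 547 of them. Chromosome 1 carried 25.9% of the gFLM, 27.1% of the iFLMbeta and 25.9% of the iFLMdelta intron regions, and 25.8%, 24.9% and 25.04% of all regions.

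The regions were short. The median gFLM region had 159 bp, the median iFLMbeta region 152 bp and the median iFLMdelta region 151 bp, against 177, 156 and 154 bp over all nuclear regions, and the shortest in each list had 131 bp. The median distance from an intron region to the nearest other gene was 1972.5 bp for gFLM, 1751.5 bp for iFLMbeta and 1781 bp for iFLMdelta. Nearly all hosts were protein-coding, since the transcript at the centre was an mRNA alone for 1633, 1580 and 1087 regions. The exceptions were 10, 5 and 7 regions in non-coding RNA genes and 1 region each in gFLM and iFLMbeta at MIR156c, a precursor of the microRNA family that holds plants in the juvenile phase. The tables list a miRNA transcript there with no exon, so these 2 regions met the rule although no intron is annotated. At MIR156c the mean log2 ratio was -0.35 ± 0.41 (SD, n = 3) for gFLM and 0.30 ± 0.20 (SD, n = 2) for iFLMbeta.

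Reads were few at most intron regions. The tables hold reads in deposited regions only, from 17161 to 435306 per nuclear gFLM library, 52819 to 194811 per iFLMbeta library and 71083 to 211113 per iFLMdelta library. A gFLM intron region had a median of 11, 2 and 7 reads in the 3 GFP libraries and 3, 0 and 7 in the 3 controls. Control replicate 2 of gFLM had no read at 911 of the 1644 regions (55.4%), and GFP replicate 2 had none at 380 (23.1%). In iFLMbeta the medians were 14 and 12 reads in GFP and 8 and 3 in control, and in iFLMdelta 23 and 10 in GFP and 9 and 7 in control.

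The share of reads that fell in intron regions did not separate GFP from control. In gFLM it was 5.90%, 6.0% and 7.87% in the GFP libraries and 4.31%, 6.93% and 7.04% in the controls. The means were 6.59% ± 1.11 and 6.09% ± 1.55 (SD, n = 3 each), with a two-sided exact permutation p of 0.8 where the smallest possible is 0.1. In iFLMbeta the share was 12.3% and 11.3% in GFP and 12.2% and 12.1% in control, and in iFLMdelta 12.4% and 11.6% against 12.9% and 11.2%. For both variants the two-sided exact permutation p was 1 and cannot go below 0.333.

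GFP over control ratios of intron regions lay close to those of all regions. A ratio was taken on the log2 scale, of GFP to control, after adding 1 read to each and dividing by the library's reads in all nuclear deposited regions, and the mean over replicates is given for a region. Intron regions of gFLM had a median of -0.28, those of iFLMbeta -0.15 and those of iFLMdelta -0.02, against -0.32, -0.15 and -0.03 over all regions. From the 5th to the 95th percentile, intron regions ran from -1.02 to 0.65 in gFLM, from -0.72 to 0.68 in iFLMbeta and from -0.55 to 0.65 in iFLMdelta. Within gFLM the median intron ratio was 0.32 in replicate 1, -1.12 in replicate 2 and 0.20 in replicate 3, where the medians over all regions were 0.05, -1.12 and 0.07. Control replicate 2 had no read at 55.4% of intron regions, where the ratio depends on the added read. Whether low reads account for the median of replicate 2 was not tested. In that replicate 13.02% of intron regions and 17.5% of all regions had a ratio above 0, while in replicates 1 and 3 the shares were 63.2% and 61.1% of intron regions and 53.3% and 53.4% of all. Without replicate 2 the gFLM intron median was 0.22, so the side of 0 on which it lay rested on that replicate. It was -0.55 without replicate 1 and -0.50 without replicate 3. In iFLMbeta the median was 0.05 without the second column pair, and in iFLMdelta it was 0.15 without the first and 0.08 without the second.

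**Figure D1:**
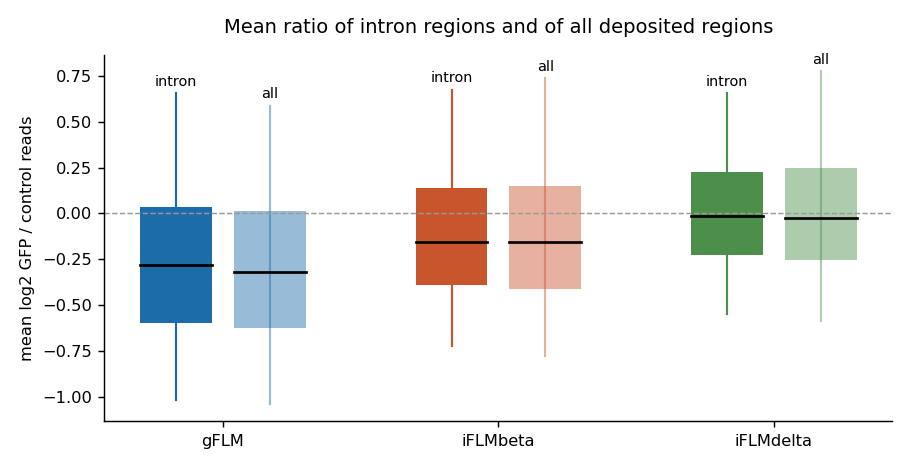
Spread of the mean log2 GFP over control ratio (y axis) for intron regions (dark) and all nuclear deposited regions (pale) of each construct. Boxes span the 25th to 75th percentiles, thin lines the 5th to 95th, and black lines are medians. The intron medians of -0.28, -0.15 and -0.02 sit near those of all regions.

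A ratio above 0 in every replicate was found at 76 gFLM intron regions (4.62%), where 4.85% of all gFLM regions had one. It was found at 176 iFLMbeta intron regions (11.1%, against 12.9% of all) and at 188 iFLMdelta intron regions (17.2%, against 17.9% of all). The lowest scaled GFP library lay above the highest control at 84 gFLM intron regions (5.11%, against 4.6% of all), 162 in iFLMbeta (10.2%, against 12.5%) and 140 in iFLMdelta (12.8%, against 13.8%). These shares were near the background in all 3 constructs.

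The authors' tables give a q-value per replicate, and a passing region is one whose q stayed at or below 0.05 throughout the replicates of its construct. Of the intron regions 9 passed in gFLM (0.547%), 11 in iFLMbeta (0.694%) and 5 in iFLMdelta (0.457%), where 0.8%, 1.46% and 0.41% of all regions passed. Coding-exon regions passed at 0.234%, 0.416% and 0.656%, and intergenic regions at 0.957%, 2.32% and 0.31%. Introns thus lay between coding exons and intergenic regions in gFLM and iFLMbeta, and also in iFLMdelta, where the order of the other 2 locations was turned. The 25 passing regions lay in 22 genes, and 3 genes held a passing region in more than 1 construct. The counts rose when a replicate was left out of the rule, to 27 without replicate 2 and 21 without replicate 3 in gFLM. They were 93 and 197 in iFLMbeta without the first and the second column pair, and 68 and 193 in iFLMdelta. Among the 100 best ranked regions of each list, 4, 2 and 11 were in introns, which held 8.27%, 11.5% and 10.9% of all regions.

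**Figure D2:**
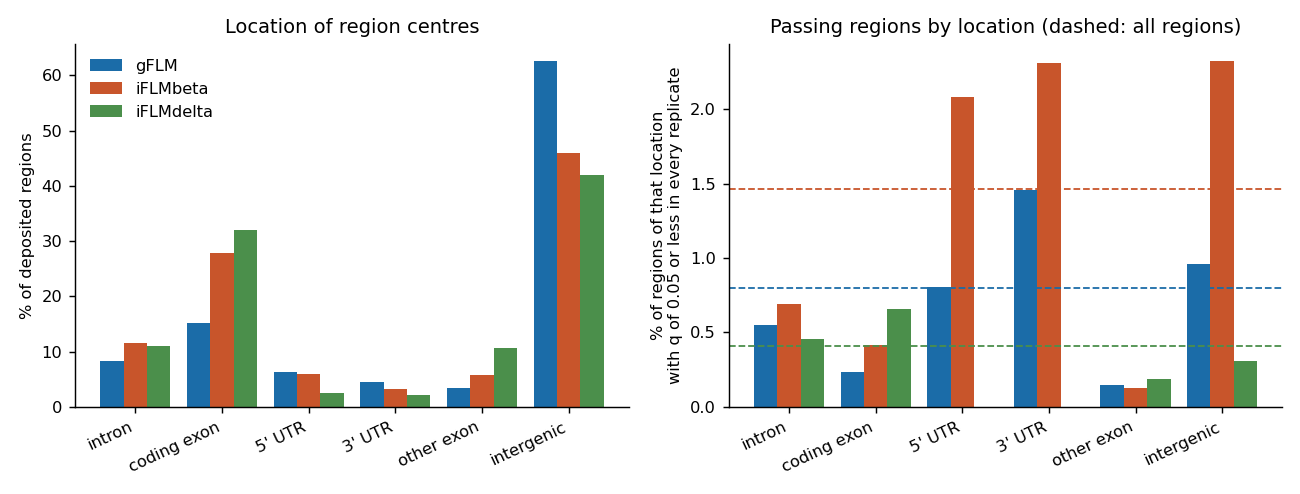
Left, share of each construct's nuclear deposited regions by location of the region's centre (y axis, percent). Right, share of the regions at each location that passed the q threshold in every replicate (y axis, percent), with dashed lines for all regions. Introns passed at 0.547%, 0.694% and 0.457%, below the dashed line in gFLM and iFLMbeta.

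Most intron regions passed in no replicate by the authors' q, namely 1410 (85.8%) in gFLM, 1307 (82.4%) in iFLMbeta and 838 (76.6%) in iFLMdelta. A q of 0.05 or less in a single replicate was found at 194 gFLM (11.8%), 268 iFLMbeta (16.9%) and 251 iFLMdelta (22.9%) intron regions. Over all regions the shares were 11.0%, 14.7% and 19.9%. In gFLM another 31 (1.89%, against 1.45% of all regions) passed in 2 of 3 replicates. Passing regions were longer, with median sizes of 319, 225 and 186 bp.

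SPA2 (AT4G11110) held the intron region with the most GFP reads relative to control in gFLM. SPA2 encodes a partner of COP1, and the SPA and COP1 proteins form a ubiquitin ligase that represses light responses and acts on photoperiodic flowering. The region spans chromosome 4, 6771765 to 6772158 (TAIR10), 394 bp in the single annotated transcript, and stood 8th of all gFLM regions in the authors' rank. GFP libraries held 469, 127 and 114 reads and controls 8, 0 and 20. Scaled to 100000 reads in deposited regions, this was 107.7, 170.5 and 73.4 in GFP and 4.42, 0 and 10.3 in control, so all GFP libraries lay far above all controls. The log2 ratios were 4.44, 4.88 and 2.78, a mean of 4.03 ± 1.11 (SD, n = 3).

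SPA2 also led the intron regions of iFLMbeta, again with rank 8 in its list. The iFLMbeta region at chromosome 4, 6771810 to 6772121, lies within the gFLM region. It had 173 and 205 reads in GFP and 20 and 10 in control, or 88.8 and 112.7 against 18.4 and 18.9 per 100000. The groups stood apart, with log2 ratios of 2.21 and 2.44 and a mean of 2.32 ± 0.17 (SD, n = 2). The iFLMbeta and iFLMdelta columns carry a number but name no library, so values per replicate and their SDs rest on column numbers. With the control columns crossed, the SPA2 ratios were 2.10 and 2.55. The iFLMdelta members held no region at SPA2.

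**Figure D3:**
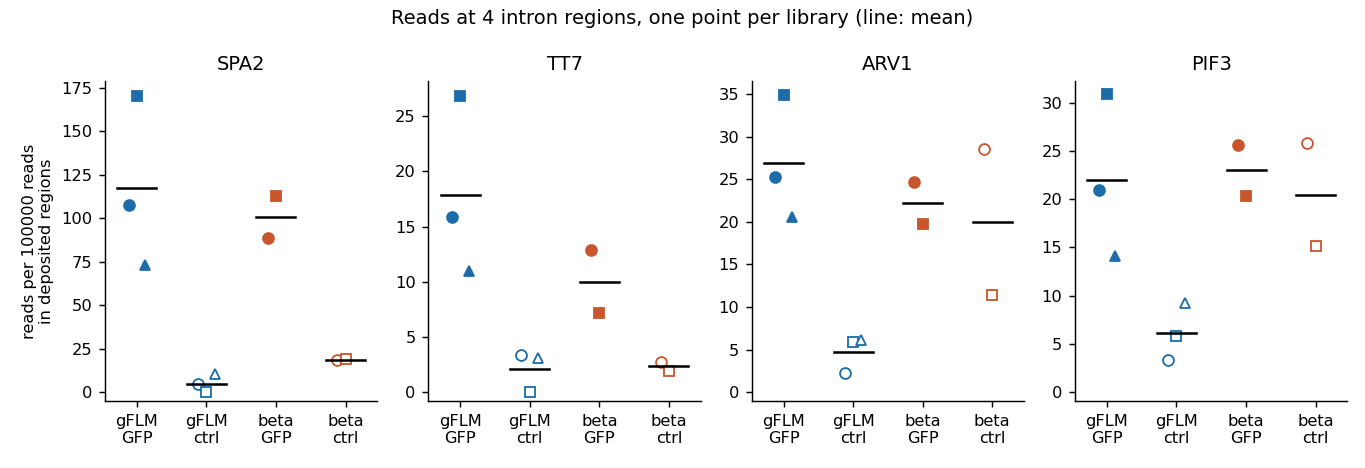
Reads per 100000 reads in deposited regions (y axis, linear, a scale of its own in each panel) at 4 intron regions of gFLM and the overlapping iFLMbeta regions, 1 point per library with circles, squares and triangles for replicates 1, 2 and 3 and a line at the mean; filled points are GFP and open points control. SPA2 GFP libraries lie above the controls in both constructs. At ARV1 and PIF3 an iFLMbeta control lies as high as the iFLMbeta GFP libraries.

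ARV1 (AT1G01020), which encodes a membrane protein of lipid homeostasis, had the second best ranked intron region of gFLM (rank 65, chromosome 1, 8239 to 8523). Its GFP reads were 110, 26 and 32 and its control reads 4, 1 and 12. Log2 ratios were 3.20, 1.64 and 1.67, with a mean of 2.17 ± 0.90 (SD, n = 3). The scaled GFP values of 25.3, 34.9 and 20.6 per 100000 all exceeded the control values of 2.21, 5.83 and 6.15.

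TT7 (AT5G07990) encodes flavonoid 3'-hydroxylase of the pigment pathway, and its region at chromosome 5, 2561214 to 2561492, ranked 112th. GFP reads were 69, 20 and 17 and control reads 6, 0 and 6. Its log2 ratios were 2.05, 2.27 and 1.69, with a mean of 2.01 ± 0.29 (SD, n = 3). All 3 GFP libraries lay above the controls.

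PIF3 (AT1G09530) encodes a phytochrome-interacting bHLH factor, and its gFLM region spans chromosome 1, 3076900 to 3077218 (rank 149). GFP reads were 91, 23 and 22 and control reads 6, 1 and 18, a mean log2 ratio of 1.51 ± 0.92 (SD, n = 3), with the groups apart. LOX6 (AT1G67560), a lipoxygenase gene, ranked 87th at chromosome 1, 25320170 to 25320495, with 145, 27 and 28 GFP reads against 6, 0 and 21. Its ratio was 2.18 ± 1.27 (SD, n = 3), with replicate 3 lowest at 0.73.

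NF-YA3 (AT1G72830) encodes a subunit of the CCAAT-binding nuclear factor Y, with 77, 17 and 20 GFP reads against 11, 1 and 8 and a ratio of 1.35 ± 0.26 (SD, n = 3). The remaining passing gFLM regions were in AT1G58110 (1.69 ± 1.10), AT4G32340 (1.54 ± 0.67) and AT4G34950 (1.00 ± 0.19; SD, n = 3 each). Over the 9, mean ratios ran from 1.00 to 4.03 with a median of 1.69. At all 9 the scaled GFP libraries lay above the controls. They were chosen by q-values from these same libraries, so this separation is no added support. Replicate 3 gave the lowest of the 3 ratios at 7 of the 9, the exceptions being ARV1 and NF-YA3. Outside the threshold, regions in BXL1 and XYL1, which encode a xylosidase each and act on cell-wall sugars, missed it in a single replicate with q of 0.056 and 0.062.

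**Figure D4:**
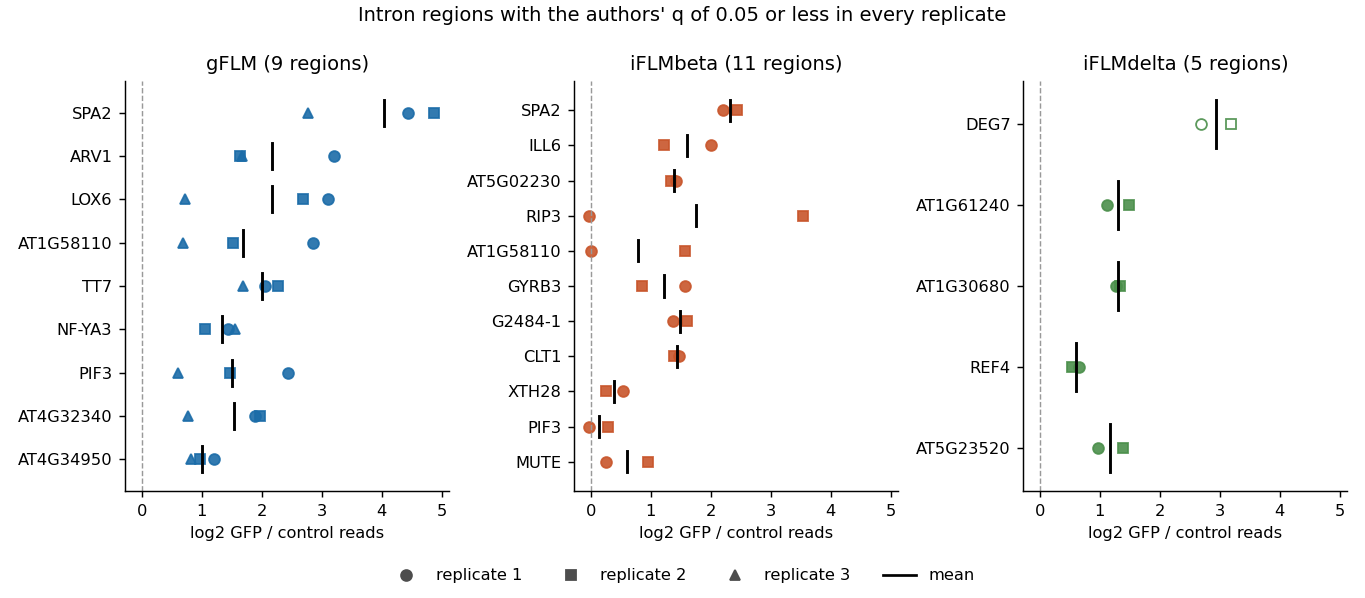
Log2 GFP over control ratio per replicate (x axis; circle, square and triangle for replicates 1, 2 and 3) at the 25 intron regions that passed the authors' q threshold in every replicate, ordered by the authors' rank from top to bottom; black bars are means and the dashed line marks 0. Open symbols at DEG7 depend on the added read because both controls were at 0. All gFLM and iFLMdelta points lie above 0, while RIP3, AT1G58110 and PIF3 in iFLMbeta have a replicate just below 0.

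The 11 passing iFLMbeta regions fell into those whose libraries stood apart and those whose libraries overlapped. The 6 that stood apart were in SPA2, ILL6, AT5G02230, GYRB3, G2484-1 and CLT1. ILL6, of the family of enzymes that cleave auxin-amino acid conjugates, had 35 and 55 GFP reads against 4 and 6 in control, a ratio of 1.61 ± 0.56 (SD, n = 2). AT5G02230 had 23 and 34 against 4 and 3, a ratio of 1.38 ± 0.05 (SD, n = 2). CLT1, which encodes a plastid membrane transporter, had 14 and 17 against 2 and 1, a ratio of 1.43 ± 0.06 (SD, n = 2). Crossing the control columns gave an SD of 0.96 at AT5G02230, 0.58 at CLT1 and 1.598 at ILL6.

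The other 5 were in RIP3, AT1G58110, XTH28, PIF3 and MUTE, and at each a control library lay at or above a GFP library on the scaled reads. RIP3, a gene of an effector of ROP GTPases, had 43 and 39 GFP reads against 24 and 0 in control, and log2 ratios of -0.03 and 3.54. PIF3 had 50 and 37 against 28 and 8, or 25.7 and 20.3 per 100000 against 25.8 and 15.1, with a ratio of 0.13 ± 0.23 (SD, n = 2). MUTE, a bHLH gene of stomatal development, had 29 and 19 against 13 and 2, with ratios of 0.25 and 0.95. XTH28, a gene of a cell-wall xyloglucan enzyme, had a ratio of 0.39 ± 0.20 (SD, n = 2). These 5 regions thus met the authors' q while a control library was as high as a GFP library on this scale.

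The 5 passing iFLMdelta regions held fewer reads. DEG7, which encodes a Deg-family serine protease, had 15 and 12 GFP reads and none in either control (rank 4, chromosome 3, 807399 to 807531). Against a floor of 3 reads per control library its scaled reads were at least 2.01-fold higher in the first column pair and at least 2.79-fold higher in the second. AT1G61240 had 26 and 19 against 4 and 4, a ratio of 1.30 ± 0.25 (SD, n = 2). AT1G30680 had 29 and 17 against 4 and 4, a ratio of 1.30 ± 0.04 (SD, n = 2). AT5G23520 had 28 and 14 against 5 and 3, a ratio of 1.17 ± 0.30 (SD, n = 2). REF4, a Mediator-associated gene of phenylpropanoid metabolism, had 46 and 26 against 11 and 12, a ratio of 0.60 ± 0.09 (SD, n = 2). Crossing the control columns gave an SD of 0.40 at AT1G30680, 0.62 at AT1G61240, 0.16 at AT5G23520 and 0.44 at REF4. The GFP libraries lay above the controls at all 5, which were likewise chosen by q-values from these libraries.

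In edgeR's quasi-likelihood test of GFP against control, few intron regions were higher at an adjusted p under 0.05. These were 3 in gFLM (1.37% of those tested), 1 in iFLMbeta (0.101%) and 0 in iFLMdelta, and none were lower. Of all tested regions 0.959% were called higher for gFLM, 0.341% for iFLMbeta and 0% for iFLMdelta. The filter on low counts left 219 of 1644 gFLM, 993 of 1586 iFLMbeta and 629 of 1094 iFLMdelta intron regions. These were 13.3%, 62.6% and 57.5% of them, where it left 26.2%, 53.2% and 46.0% of all regions. Shares of tested regions therefore rest on unlike bases, most of all in gFLM. A region can pass this filter through its GFP reads alone, so counts over tested regions do not describe all intron regions. Regions were called on these same libraries, so the test describes how firmly the counts separate and is no independent evidence of binding. At an unadjusted p under 0.05, 32 (14.6%), 5 (0.504%) and 2 (0.318%) of the tested intron regions were higher. Of all tested regions, 6.54%, 1.43% and 0.13% were. In iFLMdelta DESeq2 also called 0 intron regions, and 0 were higher at an unadjusted p under 0.05 with it.

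The gFLM calls were SPA2, with a log2 fold of 4.20 (SE 0.57, adjusted p = 1.37e-08), TT7 (2.60, SE 0.66, 0.0182) and ARV1 (2.66, SE 0.73, 0.0398). The iFLMbeta call was SPA2, with a log2 fold of 2.46 (SE 0.42, adjusted p = 3.01e-06). In gFLM the SPA2 call stood under 13 of 14 alternatives and ended without the filter on low counts (adjusted p = 0.619). The ARV1 and TT7 calls ended whichever library or replicate was left out, with adjusted p from 0.0691 to 1.00 for ARV1 and from 0.0604 to 0.699 for TT7. In iFLMbeta the SPA2 call ended without the second GFP column (0.730), the first control column (0.709) or the second control column (0.214).

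Same-numbered gFLM libraries deviated together, weakly so for replicate 3. With the replicate number as a block edgeR called 12 gFLM intron regions higher (5.48% of those tested), against 3.03% of all tested regions. The filter had left 13.3% of gFLM intron regions but 26.2% of all, so these shares do not show an excess in introns. Counted over deposited regions, the calls were 12 of 1644 in introns and 158 of 19879 in all. Of the 12, 8 were passing regions, all but the one in AT4G34950. The others were in BXL1 (log2 fold 2.05, SE 0.56), XYL1 (2.00, SE 0.56), CHX27 (1.83, SE 0.54) and AT3G54450 (1.79, SE 0.55), the last 2 named after their values were seen. Blocked adjusted p ran from 7.36e-10 at SPA2 to 0.0371 at AT3G54450.

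Regions of different constructs were paired where they overlapped by 1 bp or more, each region being used once. Of the intron regions 8.26% of iFLMbeta and 8.33% of gFLM had a partner at any location in the other list, where 16.9% and 11.7% of all regions did. With iFLMdelta, 2.77% of iFLMbeta and 3.04% of gFLM intron regions had one, against 5.32% and 3.67% of all. These shares are descriptions, and their difference was not tested. An iFLMbeta and a gFLM region, both centred in an intron and overlapping by 1 bp or more, formed 95 pairs, which is 5.99% of the iFLMbeta and 5.78% of the gFLM intron regions. iFLMbeta and iFLMdelta shared 31 (1.95% and 2.83%), and gFLM and iFLMdelta 29 (1.76% and 2.65%). At the level of genes, 251 held an intron region in both gFLM and iFLMbeta, 137 in iFLMbeta and iFLMdelta, 142 in gFLM and iFLMdelta, and 35 in all 3, out of 3660 with one in any construct. Intron regions of all 3 constructs overlapped at 3 places, in RIP3, in AT5G07970 and in KT1, a potassium transporter gene. Their bounds differed, and at KT1 they were 12835270 to 12835483 in gFLM, 12835158 to 12835291 in iFLMbeta and 12835226 to 12835376 in iFLMdelta. Ratios at these places therefore cover partly different DNA. At KT1 the mean ratios were 0.10 ± 0.78 in gFLM, -0.01 ± 1.37 in iFLMbeta and -0.32 ± 1.11 in iFLMdelta (SD, n = 3, 2 and 2).

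All 9 passing gFLM intron regions overlapped an iFLMbeta region, and 3 of these passed there, in SPA2, AT1G58110 and PIF3. Of all gFLM regions, passing or not, 11.7% were paired with iFLMbeta. The overlap of passing regions at other locations was not counted, so the counts here are not shown to be particular to introns. None of the 9 overlapped an iFLMdelta region, as few gFLM regions did (3.67% of all). Of the 11 passing iFLMbeta regions 8 overlapped a gFLM region, with the same 3 passing, and 1, in RIP3, overlapped an iFLMdelta region that did not pass. None of the 5 passing iFLMdelta regions overlapped a region of either other construct, where 7.33% of all iFLMdelta regions were paired with iFLMbeta and 7.30% with gFLM. Over its whole 312 bp, of which only a part overlaps, the iFLMdelta region in RIP3 had 52 and 20 GFP reads against 25 and 11 in control. Its ratio was 0.0017 ± 0.40 (SD, n = 2).

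At the 95 regions shared by iFLMbeta and gFLM the median ratio was -0.05 in iFLMbeta and 0.30 in gFLM, and gFLM had the higher mean at 65. The median difference, iFLMbeta minus gFLM, was -0.33, where over all 2331 shared regions it was 0.02. Both means were above 1 at 5 of the 95, in SPA2, TT7, ILL6, AT5G02230 and WRKY47, the last a transcription factor gene named after its values were seen. The counts of 65 and 5 were not taken over all shared regions. For iFLMbeta and iFLMdelta the medians over 31 shared regions were -0.31 and -0.16, and for gFLM and iFLMdelta over 29 they were -0.16 and -0.19.

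**Figure D5:**
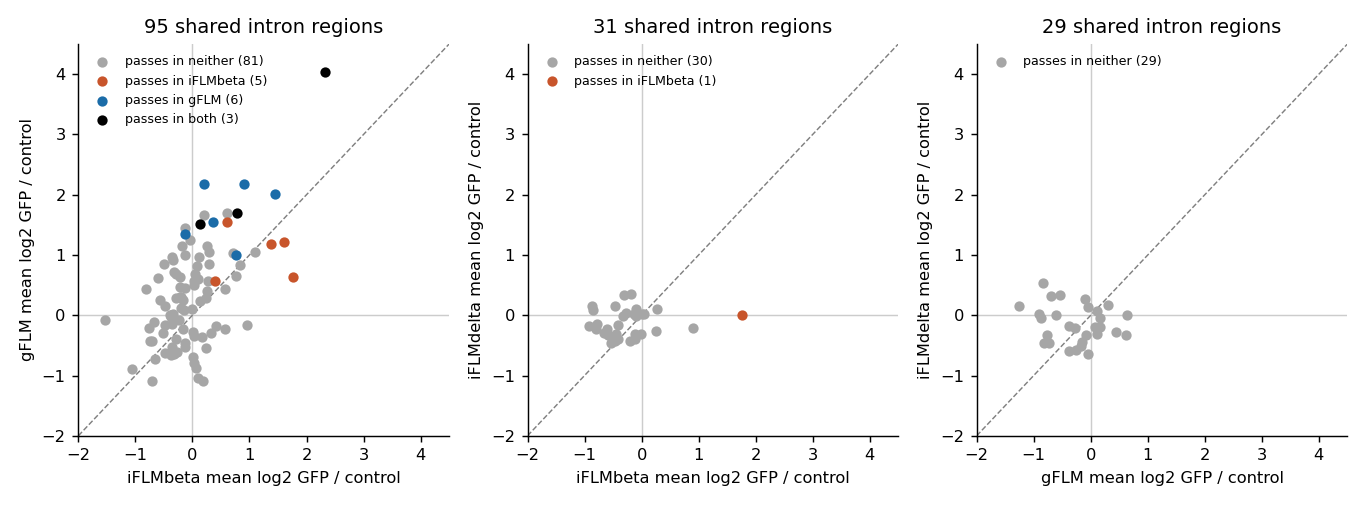
Mean log2 GFP over control ratio at intron regions shared by each pair of constructs (both axes log2, 1 point per pair of regions), coloured by where the authors' q threshold was passed, with the dashed line of equal values. SPA2 is the point farthest from 0 in the left panel, at 2.32 in iFLMbeta and 4.03 in gFLM. No shared region of the middle and right panels had both means above 1.

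The difference in enrichment was tested by an edgeR interaction term over all shared regions. On simulated counts with a log2 difference of 3, this fit recovered 40% of the changed regions for iFLMbeta against gFLM. It recovered 73.3% for iFLMbeta against iFLMdelta and 56.7% for gFLM against iFLMdelta. A count of 0 therefore does not show equal enrichment. Of 87 tested intron regions 0 differed between iFLMbeta and gFLM at an adjusted p under 0.05, as did 0% of all 2065 tested, and DESeq2 called 0. At an unadjusted p under 0.05, 6 of the 87 (6.9%) differed with either tool, all lower in iFLMbeta in edgeR, against 2.76% of all tested. That count was 22 of 75 without gFLM control replicate 3, 11 of 95 without the second iFLMbeta control column and 3 without either iFLMbeta GFP column. The ARV1 difference was -2.56 (log2, iFLMbeta minus gFLM, SE 0.80, unadjusted p = 0.00145, adjusted p = 0.999). At ARV1 the iFLMbeta libraries held 48 and 36 GFP reads against 31 and 6 in control, a ratio of 0.19 ± 0.60 (SD, n = 2). At SPA2 the difference was -1.68 (SE 0.68, unadjusted p = 0.0133), at NF-YA3 -1.91 (SE 0.82, 0.0199), at BXL1 -1.96 (SE 0.83, 0.0182) and at XYL1 -2.13 (SE 0.96, 0.0261), each with an adjusted p of 0.999. NF-YA3 stood at -0.13 ± 0.17 (SD, n = 2) in iFLMbeta, with 40 and 25 reads against 22 and 8.

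Between iFLMbeta and iFLMdelta 0 of 26 tested intron regions differed at an adjusted p under 0.05 (0% of all tested), and 0 did at an unadjusted p under 0.05 in edgeR or DESeq2, against 0.567% of all tested in edgeR. Without the first iFLMbeta control column 2 did. The lowest unadjusted p was 0.235, at BGLU22, a beta-glucosidase gene, with ratios of -0.87 ± 0.71 and 0.15 ± 0.29 (SD, n = 2 each). Between gFLM and iFLMdelta 0 of 24 differed at an adjusted p under 0.05 (0% of all tested), and 0 at an unadjusted p under 0.05 with either tool, against 1.35% in edgeR. The lowest unadjusted p there was 0.155, at AT5G07970, with 0.62 ± 0.51 (SD, n = 3) and -0.32 ± 1.01 (SD, n = 2). LUG, a gene of a transcriptional corepressor that acts on AGAMOUS, stood at 0.08 ± 1.46 (SD, n = 3) and -0.19 ± 0.52 (SD, n = 2).

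Of 92 genes in lists for flowering time, floral organ identity, light and temperature signalling and the clock, 19 held an intron region in any construct. These were 8 of 42 flowering-time genes, 5 of 16 floral organ genes, 3 of 22 light and temperature genes and 3 of 12 clock genes. The only ones with a passing intron region were SPA2 and PIF3, both of the light and temperature list, in gFLM and iFLMbeta. PIF4, which encodes a further phytochrome-interacting factor with a known part in warm-temperature flowering, had 29, 5 and 9 GFP reads in gFLM against 6, 0 and 14. Its ratio was 0.35 ± 0.55 (SD, n = 3), and the groups overlapped.

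None of the intron regions of the 8 flowering-time genes passed. Their median ratio was -0.34 over 4 regions in gFLM, -0.18 over 3 in iFLMbeta and 0.48 over 2 in iFLMdelta, beside -0.28, -0.15 and -0.02 over all intron regions. FT, the mobile flowering signal, had 51, 6 and 3 GFP reads in gFLM against 2, 0 and 20 in control, with log2 ratios of 2.85, 0.69 and -2.06. The groups overlapped and only replicate 1 had a low q (6.58e-07 in the authors' deposited table). SOC1, an activator of flowering, had 4, 3 and 7 against 1, 2 and 3 in gFLM, a ratio of -0.11 ± 1.52 (SD, n = 3). FCA and MAF5 stood at -0.58 ± 1.41 and -1.02 ± 0.81 (SD, n = 3 each) in gFLM. FLM itself had an iFLMbeta intron region with 31 and 41 GFP reads against 27 and 9, a ratio of -0.18 ± 0.66 (SD, n = 2). VIN3, of the vernalization pathway, stood at -0.08 ± 0.79 (SD, n = 2) in iFLMbeta, and AGL14 at -0.52 ± 0.46 there and at 0.67 ± 0.56 (SD, n = 2 each) at another region in iFLMdelta. AGL42, a relative of SOC1, stood at 0.29 ± 1.31 (SD, n = 2) in iFLMdelta.

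Among floral organ genes, AGAMOUS had intron regions at -0.35 ± 1.30 in iFLMbeta and, best ranked, at 0.01 ± 0.29 in iFLMdelta (SD, n = 2 each). SEP1 had 15 and 8 GFP reads against 6 and 0 in iFLMbeta, a ratio of 0.87 ± 0.73 (SD, n = 2), with the groups overlapping. SHP1 stood at -0.39 ± 2.29 (SD, n = 3) in gFLM, SHP2 at 0.15 ± 0.95 and FUL at -0.04 ± 0.73 (SD, n = 2 each) in iFLMdelta. Of the clock genes, CCA1 stood at 0.14 ± 1.89 and RVE1 at 0.31 ± 0.31 in iFLMbeta, and PRR5 at -0.17 ± 0.40 in iFLMdelta (SD, n = 2 each). None of these regions passed the q threshold or was called by edgeR where it was tested.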

How the data were processed

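ChIP libraries were PCR-amplified and sequenced on a Genome Analyzer, per the labels' protocols, and reads were placed on TAIR10 according to the submitters' processing notes. For the aligner, peak caller and duplicate handling the sources used here give no name. Per construct the authors deposited a table of regions. It holds raw read counts of each library, q-values of each replicate (Benjamini-Hochberg), a rank product of the q-values as log2, its rank as a score, and the annotation at the region's centre, per the file headers. How the q-values were scaled is not stated there. Totals of mapped reads were not used here, and sums over deposited regions are not sequencing depths. Organelle regions were left out. 0 columns of per-sample values lacked a sample or group.

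Ratios used a pseudocount of 1 read. edgeR 4.0.16 in R 4.3.3 (quasi-likelihood, TMM, filterByExpr, Benjamini-Hochberg adjustment at 0.05) was fitted per construct on all nuclear regions, and interactions on all regions shared by at least 1 bp. DESeq2 1.42.0 was an alternative. The fits were tested on simulated data. Same-numbered gFLM libraries had correlated deviations (r = 0.522, 0.243 and 0.116), and the numbers were taken to pair the samples only as a pattern in the counts. Replicate 2 had the fewest reads of its group in both GFP (74499) and control (17161). Whether depth accounts for the correlations was not tested. The pairing is weak for GFP replicate 3, which had r = 0.076 with control replicate 2. The main fit did not use the pairing. The main fits used the iFLMbeta and iFLMdelta columns as unnumbered replicates of their group. Ratios per replicate, their SDs and counts above 0 in every replicate paired these columns by number. Deviations of same-numbered columns had r of -0.092 in iFLMbeta and -0.204 in iFLMdelta, so the counts show no such pairing there. Exact permutation tests ran over libraries.

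Members and lists were chosen with earlier results of these data known. Named regions were those passing q in every replicate, those called by edgeR, the 5 lowest interaction p per pair of constructs, and the best ranked intron region of listed genes. Motifs and positions within introns were not analysed here. Gene symbols came from the tables and from RefSeq's annotation of TAIR10.1, which matched 1561 of 1567, 1521 of 1524 and 1062 of 1064 host genes. Counts of 0 and floors cover counting error only, since reads carry no molecular identifiers.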

Additional observations from a re-analysis of the deposited data

Results flagged for a closer look

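The intron region of AT3G29255 moved in opposite directions in 2 constructs. Every replicate ratio was above 0 in iFLMbeta (mean log2 ratio 0.19) and below 0 in gFLM (-1.08), a difference of 1.27. Its low counts kept it out of the interaction fit. In the fit without a filter on low counts the difference was 1.71 (log2, SE 1.58) with an edgeR adjusted p of 0.999, so it did not pass. AT1G14580, AN3 and NF-YA3 showed the opposite pattern, below 0 in iFLMbeta and above 0 in gFLM, and their interaction terms had an adjusted p of 0.999 each in edgeR.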

How the results depend on the processing

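The count of gFLM intron regions called higher, 3 in the design used, was 0 without the filter on low counts, 1 with scaling by total reads, 1 with organelle regions kept, an alternative chosen after seeing the data, and 1 in each fit without a library or replicate (lowest 1, highest 1). With the replicate block it was 12. In iFLMbeta the count of 1 ranged from 0 to 1 over fits without a library and was 1 with a block by column number. In iFLMdelta it was 0 with the block, with a crossed block chosen after seeing the data, and in the other fits. All interaction counts stayed at 0, the fits with a replicate block included. The intron regions passing by q numbered 5, 3 and 0 at q of 0.01 or less, and 4, 5 and 3 with a log2 ratio above 1 as well, for gFLM, iFLMbeta and iFLMdelta. Without a replicate they ranged from 10 to 27 in gFLM, 93 to 197 in iFLMbeta and 68 to 193 in iFLMdelta. With a pseudocount of 5 the median ratio was -0.65 for gFLM, -0.54 for iFLMbeta and -0.24 for iFLMdelta, and without a replicate it ran from -0.5489 to 0.2197, from -0.1995 to 0.04817 and from 0.08402 to 0.145. Named iFLMbeta regions turned below 0 without a control column, AT1G58110 (adjusted p = 0.9995, log2 fold -0.04) and PIF3 (0.9995, -0.11) without the second and XTH28 (0.9993, -0.06) without the first. Over all fits without a library, the adjusted p of these regions ran from 0.8622 to 0.9999 at AT1G58110, from 0.9993 to 0.9999 at XTH28 and from 0.9995 to 0.9999 at PIF3. Over named regions and alternatives, 195 values kept direction and side of the threshold, 28 lost and 5 gained a call. Where an alternative tests fewer regions or samples the change follows from its construction, and otherwise the cause was not tested. Depth limits the gFLM ratios, since control replicate 2 had no read at 55.4% of the intron regions. Where a fit left 1 library in a group, that library was assumed to vary like the others.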

Other observations

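Some genes held 3 gFLM intron regions of which none passed. These included TPS1, which makes the sugar signal trehalose 6-phosphate (mean log2 ratios from -0.45 to 0.67), BRCA2(IV), a DNA repair gene (-0.94 to -0.25), and NOV (-0.76 to -0.02). In iFLMbeta ATM, a kinase gene of the DNA damage response (-0.77 to -0.01), and MYA2, a myosin gene (-0.43 to -0.01), held 3 each.

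Of 7 iFLMdelta intron regions in non-coding RNA genes, the ratio was highest at AT5G28824 (0.80 ± 0.37, SD, n = 2), with 17 and 5 GFP reads against 4 and 1 in control.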
